A study of Oryzias latipes with 8 samples.

Results

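Translation factors, aminoacyl-tRNA synthetases and chaperones were compared between sorted cell populations of the medaka optic tectum. Members were taken by symbol: initiation factors (eif), elongation factors (eef), synthetases (symbols ending in ars or ars2), subunits of the cytosolic chaperonin (cct and tcp1), heat shock proteins (hsp) and J-domain proteins (dnaj). The search found 61 genes among the 4662 genes to which the authors' lists give a symbol, out of 16957 genes with counts in all libraries. They comprise 18 initiation genes, 7 elongation factors, 5 synthetases, 8 chaperonin subunits, 10 hsp genes, 12 dnaj genes and tcp11l2. The gene tcp11l2 and hspg2, which encodes the matrix proteoglycan perlecan, match by spelling and are not chaperones. All 61 had counts in each library and passed the filter on low counts. Symbols were at hand only for genes that the authors list as changed in at least 1 comparison, so further genes of the same families were not analysed here, and a count of changed members is not independent evidence of change. In the authors' deposited table, the members with the smallest largest change were hspa4b at a log2 fold change of 1.00, dnajc15 at 1.02 and eif6 at 1.02, just inside the lists' limit.

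The samples are sorted cells of medaka (Oryzias latipes) aged 1 month, taken from the optic tectum, which receives visual input in the fish midbrain, in a pair of transgenic lines, and their RNA was sequenced. In the Wdr12:GFP line, the promoter of the ribosome biogenesis gene wdr12 drives green fluorescent protein (GFP) in neuroepithelial cells; the sort gave GFP-positive cells (wdr12+ below, n = 3) and GFP-negative cells (wdr12- below, n = 2), the latter a mixture that can hold cycling progenitors, neurons and glia. In the ebf3:GFP line, GFP labels post-mitotic progenitors together with neurons, and the GFP-positive cells were sequenced (ebf3+ below, n = 3). All 3 groups share tissue, age, pooling of tecta before dissociation and sorting, and both wdr12 sorts share the transgene. Nothing in the labels says that replicates came from separate pools of fish, so the p-values reflect only how these libraries vary, and that variation may be technical.

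Translation starts when eIF2 brings the initiator tRNA and eIF3 holds the small ribosomal subunit on the mRNA. eEF1A then delivers each charged tRNA, eEF2 moves the ribosome along, and the synthetases charge the tRNAs. The CCT chaperonin is a ring of related subunits that folds newly made actin and tubulin, while Hsp70 and Hsp90 with their J-domain helpers fold other proteins and, for the inducible forms, respond to heat and other stress. Growing and dividing cells are known for high output of the translation machinery.

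Total counts over the 16957 genes ran from 8511255 to 11580629 in wdr12+ libraries, were 3497101 and 5798458 in wdr12-, and ran from 5247836 to 7708019 in ebf3+. Markers could be matched only where the authors' lists name the gene, so a marker changed in no comparison could not be found. The counts of changed markers are therefore not independent evidence. Of the genes these lists name, 29.9% passed as higher and 30.7% as lower in wdr12+ than in wdr12-. Against ebf3+ the shares were 37.9% and 31.8%. Of 12 matched markers of cycling cells, 12 passed the test as higher in wdr12+ than in each control. Their summed level was 4634 to 10039 CPM in wdr12+, 338 to 479 in wdr12- and 535 to 686 in ebf3+. CPM is the library-scaled read count after normalisation with the TMM method. Neuron markers summed to 1593 to 2709 CPM in wdr12+, 3712 to 4463 in wdr12- and 4374 to 5699 in ebf3+. Of these, 13 of 14 were lower in wdr12+ than in wdr12-. The exception, elavl3, held much of the sum, at 2272, 1219 and 1587 CPM in wdr12+, 1139.9 and 1279 in wdr12- and 3361, 3365 and 2348 in ebf3+. Between the controls, 3 of the 14 were higher in wdr12- and 1, elavl3, was lower, with a median log2 fold change of 0.72. Globin genes took 4.27% and 15.7% of the counts of the wdr12- libraries against at most 0.117% of any other, and all 6 matched red blood cell markers were higher in wdr12- than in either other group. A pair of plasma protein genes, apoa2 and tfa, summed to 23133 to 100941 CPM in wdr12+, 15122 to 16467 in wdr12- and 511 to 2562 in ebf3+. Glia markers summed to 3749 to 8138 CPM in wdr12+, 5462 to 6769 in wdr12- and 2051 to 2612 in ebf3+. FABP7 held most of the wdr12+ sum, at 7400.5, 3159 and 5884 CPM. Of the 7 glia markers, 0 were higher and 2, plp1b and ndrg2, lower in wdr12+ than in wdr12-. Microglia markers summed to 476 to 982 CPM, 297 to 320.3 and 38.9 to 152 in the same order. Most of this was apoeb, at 426, 933 and 882 CPM in wdr12+, the only 1 of 4 higher in wdr12+ than in wdr12-. Endothelium markers summed to 119 to 230.1 CPM, 76.6 to 80.2 and 96.2 to 99.2 in the same order. Their 3 genes disagreed between the wdr12 sorts: cldn5a was higher in wdr12+ (log2 fold change 4.14), cdh5 lower (-2.60), and egfl7 did not pass (-0.80). No matched marker of these lists was at 0 in any library, and the part of these cell types in the results on the members was not tested. In such bulk samples fewer cells of a type and less RNA per cell cannot be told apart.

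Between the sorts of the wdr12 line, 36 of the 61 members were higher in wdr12+ cells, 12 were lower and 13 did not pass edgeR's quasi-likelihood test at a Benjamini-Hochberg adjusted p under 0.05. Over all genes tested, 9.92% were higher and 9.84% lower, and over the genes with a symbol, chosen in the same way as the members, 29.9% and 30.7%. The members' median log2 fold change was 1.14, against 0.31 over genes with a symbol and 0.05 over all genes. Against ebf3+ cells, 13 members were higher in wdr12+, 9 lower and 39 did not pass, where 12.7% of all genes and 37.9% of those with a symbol were higher, and 10.8% and 31.8% lower. The members' median there was 0.25, against 0.28 over genes with a symbol. Between the controls, 5 members were higher in wdr12- than in ebf3+ and 10 lower, where 3.16% of all genes and 9.27% of those with a symbol were higher, and 1.96% and 6.18% lower. The 3 comparisons share libraries and are given side by side for that reason.

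**Figure D1:**
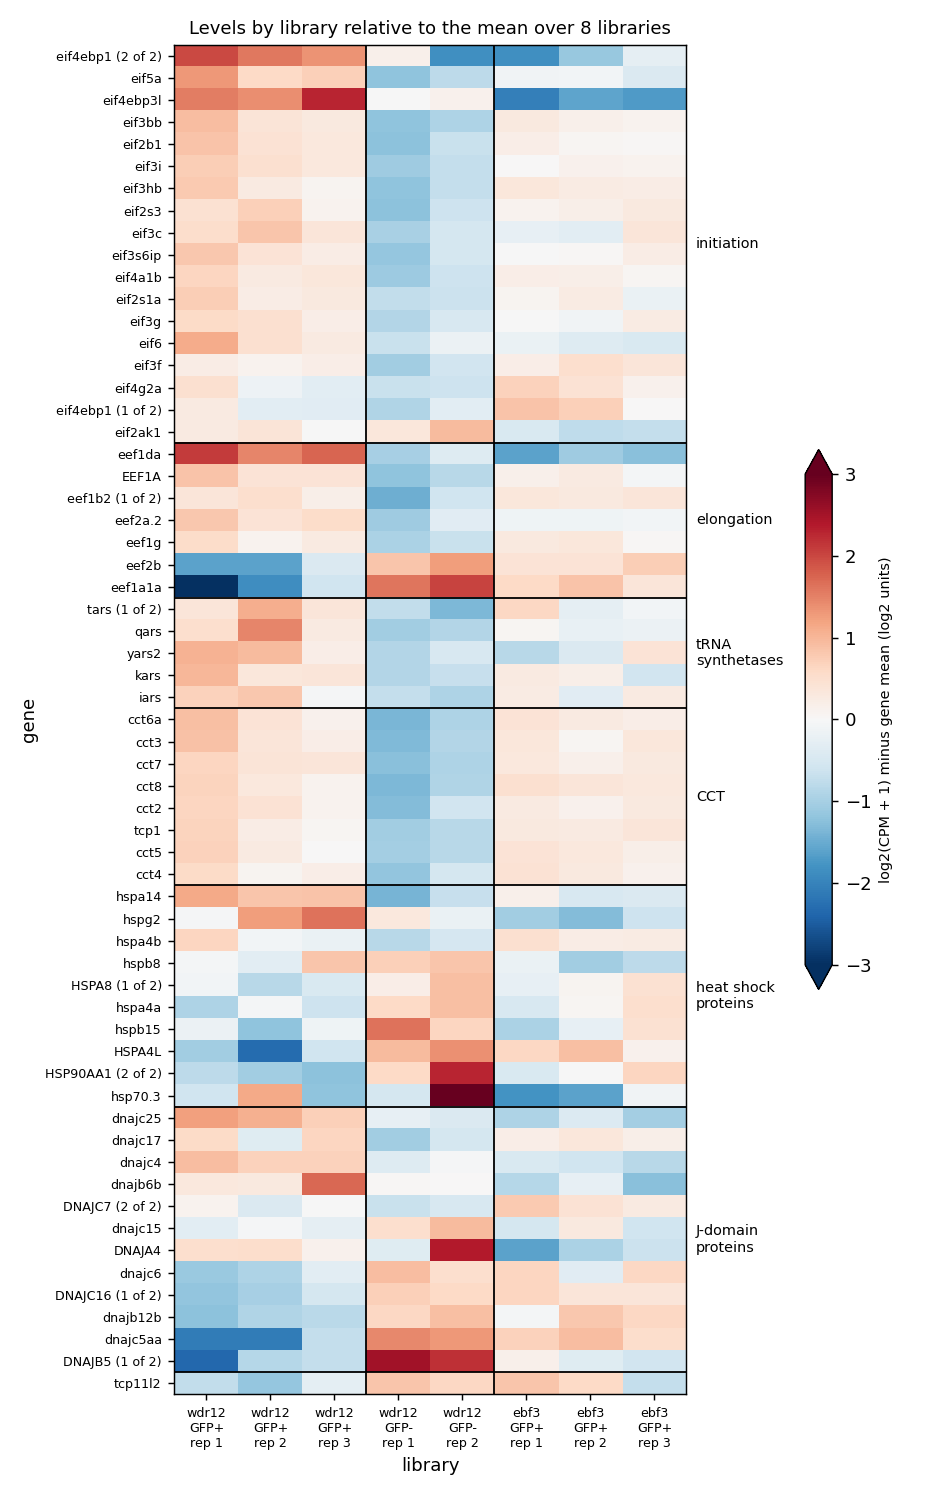
Level of the 61 members (rows, by role and then by the wdr12+ against wdr12- log2 fold change) in the 8 libraries (columns), as log2(CPM + 1) minus the gene's mean over libraries. Initiation, elongation, synthetase and CCT genes are mostly low in the 2 wdr12- libraries, and the heat shock and J-domain rows hold genes of either direction.

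Initiation genes had 15 of 18 members higher in wdr12+ than in wdr12- cells and 0 lower; 3 did not pass, with 0 lower also by DESeq2 and the 15 higher being the only ones at an unadjusted p under 0.05. Leaving aside 4 regulators, 13 of the 14 factors proper were higher than in wdr12-, and 2 of the 14 were higher than in ebf3+ cells. Beside them, 29.9% of genes with a symbol were higher in wdr12+ than in wdr12- and 30.7% lower. Against ebf3+, 37.9% of those genes were higher. All 7 matched eIF3 subunits were among the 13 factors higher than in wdr12-. Summed over these 7, the level was 4546, 3829 and 3476 CPM in the wdr12+ libraries, 1404 and 1925 in wdr12- and 3257, 3439 and 3553 in ebf3+. The wdr12- libraries were below all others, and the ranges of wdr12+ and ebf3+ overlapped.

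The eIF3 subunit gene eif3bb, part of the core of the complex, stood at 535, 372 and 346 CPM in wdr12+, 121 and 148 in wdr12- and 345, 314 and 304 in ebf3+. Its log2 fold change was 1.63 ± 0.32 (SE) between the wdr12 sorts (adjusted p = 0.00204) and -1.25 ± 0.31 between wdr12- and ebf3+ (adjusted p = 0.0303), and 0.38 ± 0.27 between wdr12+ and ebf3+ did not pass (adjusted p = 0.373). Both wdr12- libraries lay below every other library. The gene eif3f had 977, 901 and 972 CPM in wdr12+, 409.7 and 567 in wdr12- and 971, 1199.6 and 1087 in ebf3+, with log2 fold changes of 0.96 ± 0.30 between the wdr12 sorts (adjusted p = 0.036) and -1.15 ± 0.31 between the controls (adjusted p = 0.0403). Here the highest levels were in ebf3+ libraries. For the subunit gene eif3hb the same contrasts gave 1.36 ± 0.33 (adjusted p = 0.00835) and -1.22 ± 0.33 (adjusted p = 0.0423). The other 4 eIF3 genes, eif3c, eif3g, eif3i and eif3s6ip, were higher in wdr12+ than in wdr12- by 1.10 to 1.41 and passed neither other comparison. Against ebf3+ cells 0 of the 7 eIF3 genes passed with edgeR or DESeq2, and 1 had an unadjusted p under 0.05.

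Of the factors that handle the initiator tRNA, eif2s1a encodes the alpha subunit of eIF2, which stress kinases phosphorylate, and eif2s3 its gamma subunit. The gene eif2s1a had a mean of 511 ± 105 CPM (SD, n = 3) in wdr12+, 232 ± 11.6 (n = 2) in wdr12- and 391 ± 58.8 (n = 3) in ebf3+, and rose by 1.14 ± 0.31 between the wdr12 sorts (adjusted p = 0.0166). For eif2s3 the rise was 1.35 ± 0.33 (adjusted p = 0.00825), and for eif2b1, a subunit of the exchange factor that recharges eIF2 with GTP, it was 1.53 ± 0.35 (adjusted p = 0.00618). The gene eif4a1b, for the helicase that unwinds the mRNA leader, had 1557, 1197 and 1272 CPM in wdr12+, 471 and 652 in wdr12- and 1150.2, 1136 and 1031 in ebf3+. It was higher in wdr12+ than in wdr12- by 1.26 ± 0.31 (adjusted p = 0.00973), and the ebf3+ libraries lay below the wdr12+ ones without passing (0.28 ± 0.27, adjusted p = 0.539). The factor that passed no comparison was eif4g2a, a relative of the scaffold eIF4G, with 570.3, 368 and 327 CPM in wdr12+, 257 and 267 in wdr12- and 665, 553 and 449.8 in ebf3+.

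The initiation genes above both controls were eif5a, eif6 and a pair of eIF4E-binding protein genes. The factor eIF5A carries the modified amino acid hypusine and, despite its name, also helps elongating ribosomes past difficult sequences. Its gene eif5a had 1705, 1048 and 1133 CPM in wdr12+, 300.0 and 400.3 in wdr12- and 642, 652 and 513 in ebf3+. All 3 wdr12+ libraries lay above all 5 others, and the log2 fold changes were 1.89 ± 0.34 (adjusted p = 0.00128) over wdr12- and 1.10 ± 0.29 (adjusted p = 0.0107) over ebf3+. For eif6, whose product binds the large ribosomal subunit and keeps it from joining too early, the levels were 132, 85.8 and 73.2 CPM in wdr12+, 38.1 and 53.8 in wdr12- and 53.1, 46.4 and 44.4 in ebf3+. Its changes of 1.08 ± 0.34 (adjusted p = 0.0353) and 1.02 ± 0.30 (adjusted p = 0.0197) were each lost in several repeats that left out 1 library, at 0.73 (adjusted p = 0.109) and 0.70 (adjusted p = 0.0707) without wdr12+ replicate 1.

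Proteins of the 4E-BP family bind the cap-binding factor eIF4E and hold back initiation until the kinase mTOR phosphorylates them. The gene eif4ebp3l had 91.2, 82.7 and 155 CPM in wdr12+, 30.9 and 33.8 in wdr12- and 6.75, 9.63 and 8.82 in ebf3+. The 3 groups did not overlap, and each pair differed: wdr12+ over wdr12- by 1.76 ± 0.36 (adjusted p = 0.00293), wdr12+ over ebf3+ by 3.70 ± 0.34 (adjusted p = 1.06e-05) and wdr12- over ebf3+ by 1.94 ± 0.35 (adjusted p = 0.00502). The first and last of these were 1.70 (adjusted p = 0.0532) without wdr12- replicate 1 and 1.88 (adjusted p = 0.059) without wdr12- replicate 2. The copy eif4ebp1 (2 of 2) had 22.9, 17.1 and 14.2 CPM in wdr12+, 5.66 and 0.687 in wdr12- and 0.689, 1.74 and 4.00 in ebf3+. It rose over ebf3+ by 3.08 ± 0.73 (adjusted p = 0.00552), while its call over wdr12- (2.53 ± 0.84, adjusted p = 0.0448) was lost without wdr12- replicate 2, at 1.67 (adjusted p = 0.33). Without wdr12- replicate 1 that difference was 4.68 (adjusted p = 0.0228), and without ebf3+ replicate 3 the rise over ebf3+ was 3.88 (adjusted p = 0.00278). The other copy, eif4ebp1 (1 of 2), had 96.0, 63.1 and 62.3 CPM in wdr12+, 42.0 and 63.2 in wdr12- and 145, 131 and 79.6 in ebf3+. It passed no comparison, and the wdr12+ and wdr12- ranges overlapped. The gene eif2ak1, for the haem-regulated kinase that phosphorylates eIF2 alpha and is best known from red blood cell precursors, had 65.6, 71.3 and 54.3 CPM in wdr12+, 69.0 and 107 in wdr12- and 39.8, 31.8 and 33.1 in ebf3+. It was lowest in ebf3+, by 0.87 ± 0.28 against wdr12+ (adjusted p = 0.0348) and 1.33 ± 0.31 against wdr12- (adjusted p = 0.0198). The former was 0.73 (adjusted p = 0.11) without wdr12+ replicate 2, and the latter 0.98 (adjusted p = 0.318) without wdr12- replicate 2, the library with the most globin, whose part in this gene's level was not tested.

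Elongation factors had 5 of 7 members higher in wdr12+ than in wdr12- cells and 2 lower, beside 29.9% and 30.7% of genes with a symbol. The main eEF1A gene, listed as EEF1A, had 26114, 19339 and 19370 CPM in wdr12+, 6238 and 8104 in wdr12- and 16067, 17510 and 13933 in ebf3+. It rose by 1.59 ± 0.34 between the wdr12 sorts (adjusted p = 0.00393), and the difference from ebf3+ was 0.45 ± 0.29 (adjusted p = 0.319). The wdr12+ libraries lay above all others. The second eEF1A gene, eef1a1a, ran the other way, with 7.04, 16.3 and 40.8 CPM in wdr12+, 192 and 259 in wdr12- and 94.7, 113 and 79.9 in ebf3+. The 3 groups did not overlap, with log2 fold changes of -3.40 ± 0.51 (adjusted p = 0.000304) and -2.17 ± 0.46 (adjusted p = 0.0027) in wdr12+ against wdr12- and ebf3+. In mammals the eEF1A gene pair is known for a switch from the general to a neuron and muscle form; which form the medaka eef1a1a is was not determined here.

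The eEF2 genes split in the same manner. The gene eef2a.2 had 4440.4, 3338 and 3667 CPM in wdr12+, 1195 and 1985 in wdr12- and 2289, 2299.6 and 2394 in ebf3+. It rose by 1.26 ± 0.33 between the wdr12 sorts (adjusted p = 0.0136), and 0.71 ± 0.29 over ebf3+ did not pass (adjusted p = 0.0901). The gene eef2b had 21.7, 21.7 and 50.7 CPM in wdr12+, 123 and 165 in wdr12- and 91.2, 91.5 and 114 in ebf3+. It was lower in wdr12+, at -2.20 ± 0.37 (adjusted p = 0.00077) against wdr12- and -1.66 ± 0.34 (adjusted p = 0.00218) against ebf3+, with no overlap between wdr12+ and the controls. As a share of the pair's CPM, eef1a1a took 0.027%, 0.084% and 0.21% in wdr12+, 2.98% and 3.10% in wdr12- and 0.586%, 0.643% and 0.570% in ebf3+. For eef2b the shares were 0.486%, 0.645% and 1.36% in wdr12+, 9.36% and 7.66% in wdr12- and 3.83%, 3.83% and 4.56% in ebf3+. Counts are not corrected for gene length, so a share can be compared across libraries but does not give the ratio of molecules, and reads of near-identical copies may have been split between them by the authors' counting. All 4 calls that eef1a1a and eef2b were lower in wdr12+ held in each of the 8 repeats that left out 1 library. Without wdr12+ replicate 3, where eef1a1a was highest among the wdr12+ libraries, its log2 fold changes were -4.32 (adjusted p = 1.23e-05) and -3.05 (adjusted p = 5.43e-05).

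**Figure D2:**
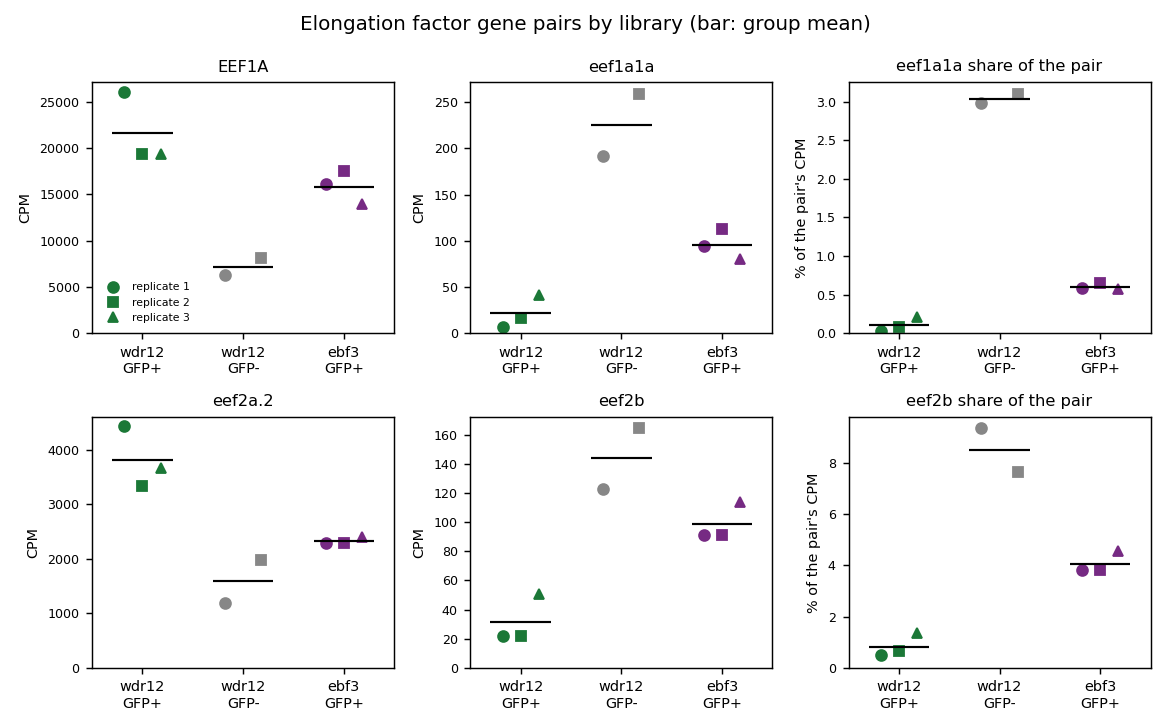
Level (CPM) of the members of the eEF1A and eEF2 gene pairs in each library, and the share of the pair's CPM taken by eef1a1a and eef2b (%); points are libraries and bars group means. EEF1A and eef2a.2 are highest in wdr12 GFP+ libraries, where eef1a1a (0.027% to 0.21% of its pair) and eef2b (0.486% to 1.36%) are lowest.

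The exchange factor that reloads eEF1A with GTP is built from the products of the eef1b, eef1d and eef1g genes. The gene eef1da had 522, 339 and 415 CPM in wdr12+, 60.9 and 93.1 in wdr12- and 39.5, 57.4 and 50.8 in ebf3+. All wdr12+ libraries lay above all others, with log2 fold changes of 2.46 ± 0.35 (adjusted p = 0.000229) and 3.11 ± 0.31 (adjusted p = 1.32e-05), both held in every repeat that left out 1 library. The scaffold subunit gene eef1g had 3625, 2662 and 2973 CPM in wdr12+, 1287 and 1549.9 in wdr12- and 3053, 3157 and 2556 in ebf3+. It rose by 1.12 ± 0.32 over wdr12- (adjusted p = 0.0195), while its wdr12+ and ebf3+ ranges overlapped (0.08 ± 0.27, adjusted p = 0.892). The copy eef1b2 (1 of 2) had 77.2, 85.8 and 68.4 CPM in wdr12+, 21.3 and 39.2 in wdr12- and 77.0, 74.2 and 78.2 in ebf3+. It was lower in wdr12- than in both other groups, by 1.35 ± 0.33 against wdr12+ (adjusted p = 0.00933) and with a log2 fold change of -1.33 ± 0.33 against ebf3+ (adjusted p = 0.0296). Among the exchange factor genes, therefore, eef1da alone passed against ebf3+ cells, with eef1b2 (1 of 2) at 0.01 ± 0.28 there (adjusted p = 0.986); a difference between the genes was not tested.

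Of the 5 synthetase genes, 4 were higher in wdr12+ than in wdr12- cells, beside 29.9% of genes with a symbol. Summed, the 5 stood at 1650.0, 1251 and 1086 CPM in wdr12+, 471 and 515 in wdr12- and 1027, 919 and 643 in ebf3+, and the 3 groups did not overlap. Most of each sum was the lysyl-tRNA synthetase gene kars, and a sum without it was not taken. It had 1389.7, 883 and 904 CPM in wdr12+, 381 and 428 in wdr12- and 842, 785 and 466 in ebf3+. It rose by 1.39 ± 0.36 over wdr12- (adjusted p = 0.0118), and 0.60 ± 0.31 over ebf3+ did not pass (adjusted p = 0.188). For iars, the isoleucyl enzyme, the rise over wdr12- was 1.37 ± 0.35 (adjusted p = 0.0109), and for tars (1 of 2), a threonyl enzyme, it was 1.94 ± 0.61 (adjusted p = 0.0341). The glutaminyl enzyme gene qars had 97.6, 191 and 82.2 CPM in wdr12+, 32.6 and 36.6 in wdr12- and 71.1, 57.8 and 60.6 in ebf3+. It rose over wdr12- by 1.84 ± 0.38 (adjusted p = 0.0032) and over ebf3+ by 0.97 ± 0.32 (adjusted p = 0.0384), but the second call was lost in most repeats without 1 library and was 0.46 (adjusted p = 0.292) without wdr12+ replicate 2. The mitochondrial tyrosyl enzyme gene yars2 did not pass, at 1.61 ± 0.57 over wdr12- (adjusted p = 0.0598), and DESeq2 called 5 of 5. Between the controls 0 of the 5 passed with edgeR or DESeq2, with 4 at an unadjusted p under 0.05.

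Of the CCT chaperonin, all 8 subunit genes were higher in wdr12+ than in wdr12- cells, beside 29.9% of genes with a symbol. Between wdr12+ and ebf3+ cells, 0 of 8 passed with edgeR or DESeq2, with 0 at an unadjusted p under 0.05. Of genes with a symbol, 37.9% were higher there and 31.8% lower. In wdr12- against ebf3+ cells, 6 of the 8 were lower, beside 6.18% of genes with a symbol. Summed over the 8 genes the level was 9345, 6986 and 6175 CPM in wdr12+, 2438 and 3195 in wdr12- and 7319.7, 6748 and 6783 in ebf3+. Both wdr12- libraries lay below the rest, and the ranges of wdr12+ and ebf3+ overlapped. Per gene, the mean in wdr12- was 32.1% to 45.9% of that in wdr12+ (median 38.0%), and that in ebf3+ 83.7% to 100%. All 8 were on the authors' lists of genes higher in wdr12+ than in wdr12- and of genes lower in wdr12- than in ebf3+. Their low level in wdr12- is therefore part of how they were chosen and not independent evidence.

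Among single subunits, cct6a had 1952, 1388 and 1146 CPM in wdr12+, 404 and 557 in wdr12- and 1388, 1274 and 1210.2 in ebf3+. Its log2 fold changes were 1.64 ± 0.34 between the wdr12 sorts (adjusted p = 0.00316), 0.21 ± 0.29 between wdr12+ and ebf3+ (adjusted p = 0.684) and -1.43 ± 0.34 between the controls (adjusted p = 0.0229). The gene tcp1, which encodes the alpha subunit, had 1712, 1259.6 and 1119 CPM in wdr12+, 517 and 606 in wdr12- and 1314, 1285 and 1371 in ebf3+, with changes of 1.28 ± 0.32 (adjusted p = 0.00945), 0.04 ± 0.27 (adjusted p = 0.944) and -1.24 ± 0.32 (adjusted p = 0.0333). For cct8 the levels were 1159, 901 and 784 CPM in wdr12+, 282 and 386 in wdr12- and 1010.2, 935 and 903 in ebf3+, and the change between the controls was -1.51 ± 0.32 (adjusted p = 0.013). In each of these genes the wdr12- libraries were the lowest and the other groups overlapped. The gene cct7 rose by 1.55 ± 0.30 between the wdr12 sorts (adjusted p = 0.00203), cct3 by 1.59 ± 0.33 (adjusted p = 0.00332) and cct5 by 1.27 ± 0.32 (adjusted p = 0.0104), and all 3 were also lower in wdr12- than in ebf3+. The genes cct2 and cct4 rose by 1.29 ± 0.33 (adjusted p = 0.0109) and 1.12 ± 0.32 (adjusted p = 0.0222) and, between the controls, were at -1.12 ± 0.33 (adjusted p = 0.0607) and -1.12 ± 0.32 (adjusted p = 0.058), which DESeq2 called and edgeR did not.

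The subunit genes were also compared as shares of their sum, with no other gene set measured beside them. The share of cct6a was lowest in wdr12-, at 16.6% and 17.4%, against 17.8% to 20.9% in the other groups. As a share of the summed CPM of the 8 genes, tcp1 took 17.9% to 21.2% over the 8 libraries, a ratio of highest to lowest of 1.18, and cct4, the most variable, took 7.84% to 11.1%, a ratio of 1.41. These shares are a description of 8 libraries and depend on gene length, so they give no stoichiometry.

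**Figure D3:**
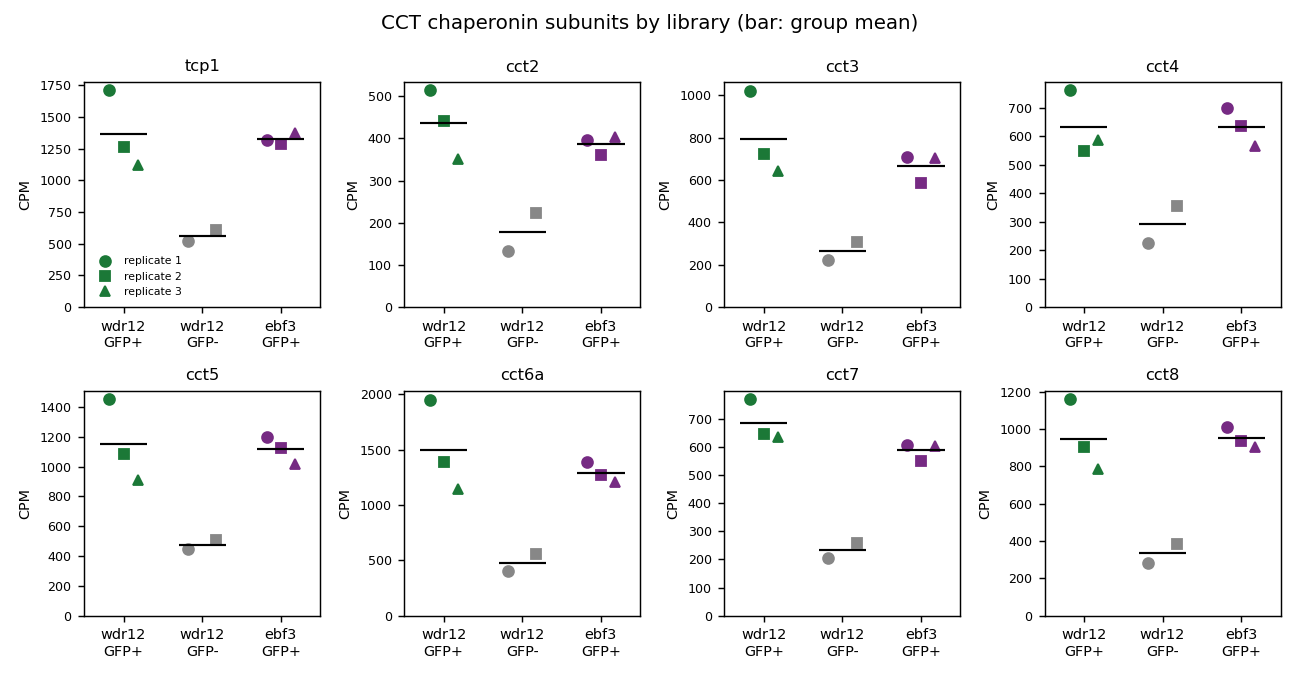
Level (CPM) of the 8 CCT subunit genes in each library, with bars for group means. In every panel both wdr12 GFP- libraries lie below the other 6, a direction for which the authors list all 8 genes. The share of all genes with such a pattern was not determined. The ranges of wdr12 GFP+ and ebf3 GFP+ libraries overlap in 7 of the 8 panels, all but that of cct7.

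The higher levels in wdr12+ than in wdr12- rest on 2 wdr12- libraries. Without wdr12- replicate 1, 3 of the 36 calls passed and 31 kept an unadjusted p under 0.05. All 36 stayed positive there, at log2 fold changes of 0.74 to 4.68. None of the 8 CCT genes passed in that repeat by edgeR, at log2 fold changes of 0.84 to 1.42 and adjusted p from 0.0519 to 0.279, and 7 of them had an unadjusted p under 0.05. Without wdr12- replicate 2, 21 of the 36 passed, 6 of them CCT genes, with the 8 CCT genes at 1.37 to 1.89. By role, 2 of 15 initiation, 1 of 5 elongation and 0 of 4 synthetase calls passed without replicate 1, and 9, 4 and 1 without replicate 2. The lower level of 6 CCT genes in wdr12- than in ebf3+ passed in 0 of the 6 without wdr12- replicate 1 (-1.30 to -1.12), wdr12- replicate 2 (-1.75 to -1.32) or ebf3+ replicate 1 (-1.46 to -1.17), with all 6 at an unadjusted p under 0.05 in each, and in 1 of the 6 without ebf3+ replicate 2 (-1.48 to -1.18). The other 4 members lower in wdr12- than in ebf3+ (eif3bb, eif3f, eif3hb and eef1b2 (1 of 2)) passed in none of these 4 repeats.

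Of the 9 heat shock protein genes among the 10 hsp members, 1 was higher in wdr12+ than in wdr12- cells, 4 were lower and 4 did not pass. Beside them, 29.9% of the pool searched for members was called higher and 30.7% lower. A departure of the 9 heat shock protein genes from that pool was not tested. DESeq2 called 2 of the 9 higher and 6 lower, 8 had an unadjusted p under 0.05, and the median log2 fold change was -1.36. The gene hspa14, whose product is an Hsp70 relative that sits at the ribosome in mammals, had 40.0, 32.2 and 32.6 CPM in wdr12+, 6.09 and 10.5 in wdr12- and 19.6, 12.3 and 12.8 in ebf3+. All wdr12+ libraries lay above all others, and the log2 fold changes were 2.07 ± 0.43 (adjusted p = 0.00304) and 1.23 ± 0.35 (adjusted p = 0.0183), lost to 1.73 (adjusted p = 0.0744) without wdr12- replicate 1 and to 1.08 (adjusted p = 0.0876) without ebf3+ replicate 2. HSPA4L, of the Hsp110 family that exchanges nucleotide on Hsp70, had 32.8, 13.2 and 45.2 CPM in wdr12+, 134 and 179 in wdr12- and 107, 129 and 75.7 in ebf3+. Its wdr12+ libraries lay below all others, at -2.37 ± 0.42 against wdr12- (adjusted p = 0.00105) and -1.78 ± 0.39 against ebf3+ (adjusted p = 0.00306), and both calls held in every repeat that left out 1 library. The related hspa4a and hspa4b passed no comparison, at -1.36 ± 0.48 (adjusted p = 0.059) and 0.84 ± 0.33 (adjusted p = 0.0919) between the wdr12 sorts.

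Several members had their highest level in wdr12- replicate 2, such as HSPA4L at 179 CPM (134 in replicate 1) and eef1a1a at 259 (192). The genes hsp70.3, HSP90AA1 (2 of 2) and DNAJA4 did too, with wider gaps between these libraries. They are set together here after their values were seen. The first, hsp70.3, an inducible cytosolic Hsp70, had 14.7, 50.6 and 9.26 CPM in wdr12+, 15.4 and 609 in wdr12- and 5.79, 6.82 and 21.0 in ebf3+. Only wdr12- replicate 2 stood apart, and the other wdr12- library lay within the wdr12+ range. The fitted log2 fold changes of -3.65 ± 0.97 between the wdr12 sorts (adjusted p = 0.0146) and 4.81 ± 1.03 between the controls (adjusted p = 0.013) became 0.68 (adjusted p = 0.803) and 0.47 (adjusted p = 0.949) without that library. Without wdr12- replicate 1 they were -4.62 (adjusted p = 0.00215) and 5.78 (adjusted p = 0.00122). The first was -4.75 (adjusted p = 0.0111) without wdr12+ replicate 2, and the second 5.63 (adjusted p = 0.0154) without ebf3+ replicate 3. HSP90AA1 (2 of 2), named after the stress-inducible cytosolic Hsp90 of mammals, had 131, 110.3 and 95.7 CPM in wdr12+, 345 and 1111 in wdr12- and 166, 226 and 359 in ebf3+. Its wdr12+ libraries lay below all others, at -2.69 ± 0.44 against wdr12- (adjusted p = 0.000558) and -1.15 ± 0.39 against ebf3+ (adjusted p = 0.0457). The first of these was -1.62 (adjusted p = 0.026) without wdr12- replicate 2 and -3.30 (adjusted p = 0.00103) without wdr12- replicate 1, and the second was lost without ebf3+ replicate 3, at -0.79 (adjusted p = 0.193). DNAJA4, for a cytosolic J-domain protein, was likewise highest in wdr12- replicate 2, at 141 CPM against 20.2 in replicate 1, 37.8, 38.3 and 28.8 in wdr12+ and 7.99, 13.1 and 16.3 in ebf3+. Its rise in wdr12- over ebf3+ (2.70 ± 0.56, adjusted p = 0.0115) was 0.70 (adjusted p = 0.712) without that library and 3.50 (adjusted p = 0.000878) without wdr12- replicate 1, and its rise in wdr12+ over ebf3+ was 1.49 ± 0.52 (adjusted p = 0.0482), or 1.25 (adjusted p = 0.183) without ebf3+ replicate 1.

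Beside these values, wdr12- replicate 2 was also the library with 15.7% globin counts. Immediate early genes, a set that responds to dissociation, summed to 369 and 415 CPM in the wdr12- libraries, 605 to 976 in wdr12+ and 159 to 232 in ebf3+. None of the 12 was at 0 in any library. In wdr12+ against wdr12-, 4 of 12 were higher and 1 lower, beside 29.9% and 30.7% of genes with a symbol. Against ebf3+, 10 were higher in wdr12+ and 6 in wdr12-, with 0 lower in either, beside 37.9% and 9.27% higher among genes with a symbol. The part of either in the chaperone levels was not tested. The remaining hsp genes were at low levels: hspb15, a small heat shock protein gene, was lower in wdr12+ than in wdr12-, at -1.80 ± 0.59 (adjusted p = 0.0439; -1.20, adjusted p = 0.457, without wdr12- replicate 1), and hspb8 and HSPA8 (1 of 2) passed no comparison. The perlecan gene hspg2 had 18, 46.0 and 59.8 CPM in wdr12+, 23.3 and 16 in wdr12- and 8.54, 6.95 and 11.7 in ebf3+, and was higher in wdr12+ than in ebf3+ by 2.19 ± 0.43 (adjusted p = 0.00161). Its wdr12+ and wdr12- ranges overlapped.

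**Figure D4:**
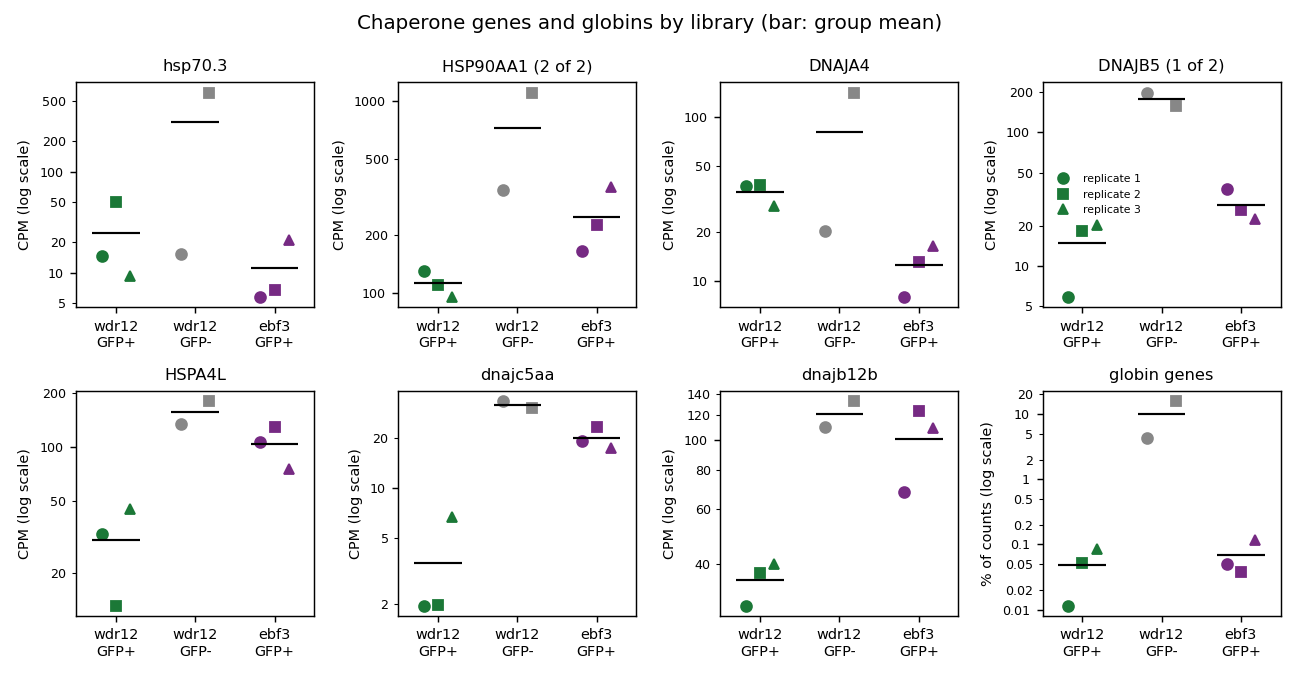
Level (CPM, log axis) of 7 heat shock and J-domain protein genes and share of counts on globin genes (%, log axis) in each library, with bars for group means. For hsp70.3 and DNAJA4 the wdr12 GFP- mean is set by replicate 2 (609 and 141 CPM), whereas for DNAJB5 (1 of 2), HSPA4L, dnajc5aa and dnajb12b both wdr12 GFP- libraries lie above all wdr12 GFP+ libraries.

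The 12 J-domain protein genes make products that direct Hsp70 to its clients. In wdr12+ against wdr12-, 3 were higher, 5 were lower and 4 did not pass. Across the pool searched for members, the same test called 29.9% higher and 30.7% lower. A departure of the 12 from that pool was not tested. DNAJB5 (1 of 2) had 5.85, 18.2 and 20.2 CPM in wdr12+, 199 and 158 in wdr12- and 37.5, 26.1 and 22.5 in ebf3+. The groups did not overlap, and wdr12- was highest, at -3.60 ± 0.44 in wdr12+ against wdr12- (adjusted p = 9.62e-05) and 2.64 ± 0.43 in wdr12- against ebf3+ (adjusted p = 0.00299), both held in every repeat that left out 1 library. The gene dnajc5aa, for the cysteine string protein of synaptic vesicles, had 1.95, 1.96 and 6.69 CPM in wdr12+, 33.1 and 30.2 in wdr12- and 19.2, 23.1 and 17.3 in ebf3+. It was lower in wdr12+ than in both controls, at -3.17 ± 0.52 (adjusted p = 0.000571) and -2.50 ± 0.48 (adjusted p = 0.00127), or -4.06 (adjusted p = 2.68e-05) and -3.35 (adjusted p = 5.96e-05) without wdr12+ replicate 3. The gene dnajc6, for auxilin, which strips clathrin from vesicles at nerve endings, had 6.39, 7.38 and 11.8 CPM in wdr12+, 29.2 and 21.5 in wdr12- and 24.0, 11.6 and 23.6 in ebf3+, with wdr12+ and ebf3+ ranges that overlapped. Its calls of -1.57 ± 0.44 (adjusted p = 0.0207) and -1.21 ± 0.41 (adjusted p = 0.0427) were lost in several repeats, to -1.33 (adjusted p = 0.203) without wdr12- replicate 1 and -1.04 (adjusted p = 0.152) without ebf3+ replicate 1. Beside these genes, 13 of 14 neuron markers were lower in wdr12+ than in wdr12-, and 10 of 14 were lower than in ebf3+. In both comparisons 0 were higher. Of genes with a symbol, 30.7% and 31.8% were lower. The part of neurons in the levels of these genes was not tested.

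A J-domain protein gene of the endoplasmic reticulum membrane, dnajb12b, had 29.5, 37.4 and 40.0 CPM in wdr12+, 109.7 and 133 in wdr12- and 68.1, 124 and 109.5 in ebf3+, and was lower in wdr12+, at -1.77 ± 0.32 (adjusted p = 0.00121) and -1.50 ± 0.29 (adjusted p = 0.00148). DNAJC16 (1 of 2) was lower in wdr12+ too, at -1.60 ± 0.34 (adjusted p = 0.00379) and -1.41 ± 0.31 (adjusted p = 0.00368), with all wdr12+ libraries of both genes below all others. In the other direction, dnajc25 had 67.5, 60.4 and 46.8 CPM in wdr12+, 23.7 and 20.8 in wdr12- and 14.5, 21.0 and 13.5 in ebf3+, a rise of 1.39 ± 0.36 (adjusted p = 0.0119) and 1.83 ± 0.31 (adjusted p = 0.000526). For dnajc4 the levels were 77.7, 65.9 and 65.6 CPM in wdr12+, 30.7 and 39.2 in wdr12- and 28.9, 26.3 and 22.0 in ebf3+, with 1.00 ± 0.32 (adjusted p = 0.0366) and 1.44 ± 0.28 (adjusted p = 0.00137). Both genes kept their rise over ebf3+ in every repeat that left out 1 library, and both lost the rise over wdr12- when either wdr12- library was left out, with dnajc25 at 1.49 (adjusted p = 0.0913) and dnajc4 at 0.83 (adjusted p = 0.306) without replicate 1. The gene dnajb6b, for a suppressor of protein aggregation, had 125, 123 and 335 CPM in wdr12+, 104 and 101 in wdr12- and 55.3, 85.1 and 41.6 in ebf3+, and was higher in wdr12+ than in ebf3+ by 1.68 ± 0.39 (adjusted p = 0.00516), or by 1.02 (adjusted p = 0.0265) without wdr12+ replicate 3, its highest library. The gene dnajc17 was higher in wdr12+ than in wdr12- by 1.15 ± 0.38 (adjusted p = 0.0441; 0.91, adjusted p = 0.343, without wdr12- replicate 1), and dnajc15 and DNAJC7 (2 of 2) passed no comparison.

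In all, 9 members were higher in wdr12+ cells than in both controls: eef1da, eif5a, eif6, eif4ebp3l, eif4ebp1 (2 of 2), qars, hspa14, dnajc25 and dnajc4. The 9 members lower than both were eef1a1a, eef2b, HSP90AA1 (2 of 2), HSPA4L, dnajc5aa, dnajc6, dnajb12b, DNAJC16 (1 of 2) and tcp11l2. The last had 60.7, 45.4 and 83.5 CPM in wdr12+, 183 and 158 in wdr12- and 182, 156 and 62.1 in ebf3+, so that its wdr12+ and ebf3+ ranges overlapped, as did those of dnajc6. The tcp11l2 difference from ebf3+ (-1.08 ± 0.36, adjusted p = 0.0432) was -0.78 (adjusted p = 0.222) without ebf3+ replicate 1. A further 10 members were lower in wdr12- than in both other groups: 6 CCT genes, eef1b2 (1 of 2), eif3bb, eif3f and eif3hb. Another 17 were higher in wdr12+ than in wdr12- and passed neither other comparison. The shares of all genes with the same joint patterns were not determined, so these counts only list the members.

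**Figure D5:**
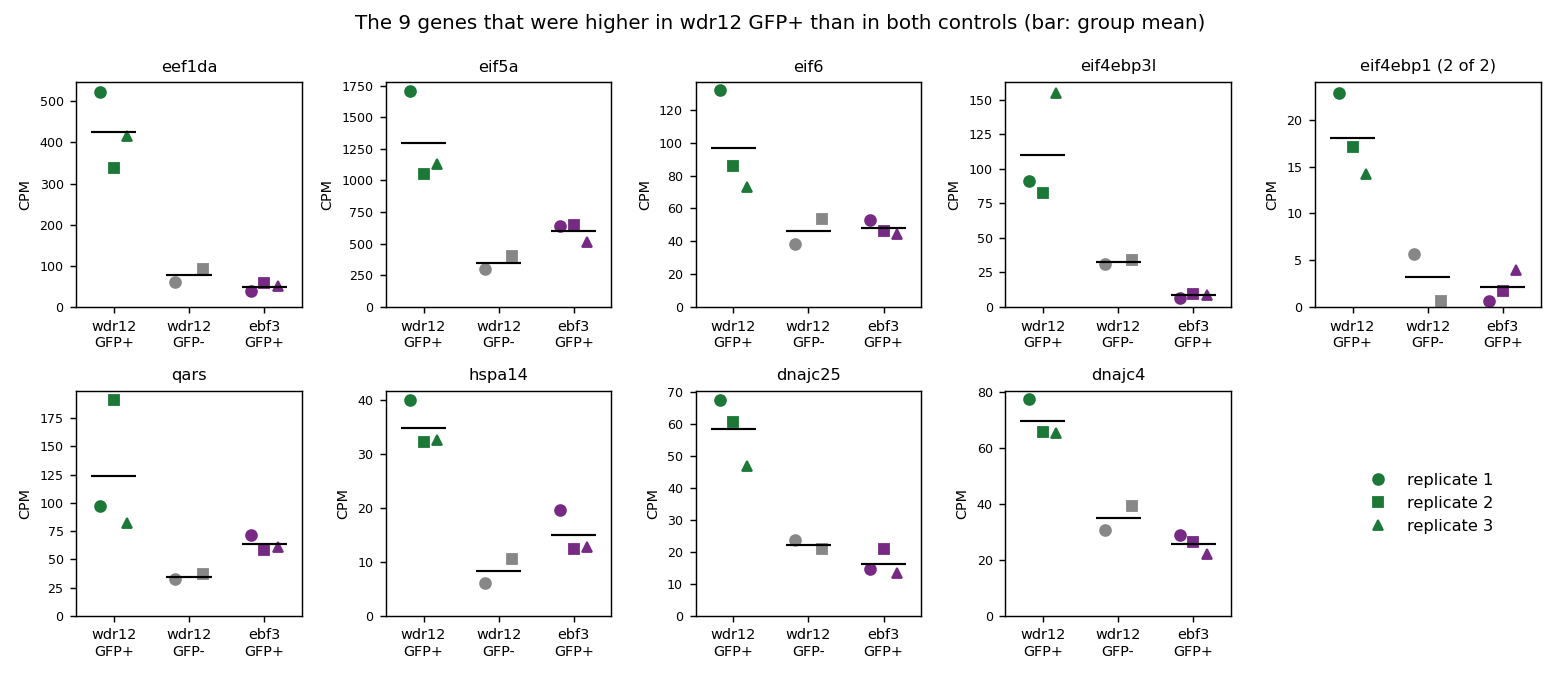
Level (CPM) in each library of the 9 members that passed the test as higher in wdr12 GFP+ than in both controls, with bars for group means. In every panel all 3 wdr12 GFP+ libraries lie above the other 5, by the widest relative margin for eef1da, eif4ebp1 (2 of 2) and eif4ebp3l. The 9 were chosen by the test on these same libraries, so the separation is not independent evidence. The share of all genes with such a pattern was not determined.

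Other genes of the same pathways were looked up by lists, again only among genes with a symbol. Pathway genes that the authors call changed in no comparison were thus not seen. The counts below therefore do not describe whole pathways and are not independent evidence. Among all genes open to this search, 29.9% were higher in wdr12+ than in wdr12- and 30.7% lower. The shares against ebf3+ were 37.9% and 31.8%. Of 11 genes for the scaffold of the synthetase complex and for synthetase subunits and tRNA modification outside the symbol search, 4 were found, and all 4 were higher in wdr12+ than in wdr12-. The scaffold gene aimp1 rose by 1.77 ± 0.34 (adjusted p = 0.00169), farsb, a phenylalanyl-tRNA synthetase subunit, by 1.68 ± 0.33 (adjusted p = 0.00202) and osgep, a tRNA-modifying enzyme, by 1.88 ± 0.34 (adjusted p = 0.00126). Of 15 termination and recycling genes 1 was found, the ribosome recycling factor abce1, at 471, 542 and 407 CPM in wdr12+, 111 and 147 in wdr12- and 240.1, 227 and 273 in ebf3+. It was higher in wdr12+ than in both controls, by 1.88 ± 0.31 (adjusted p = 0.000681) and 0.94 ± 0.26 (adjusted p = 0.0157). Of 12 mitochondrial translation factors 1 was found, mtrf1l, higher by 1.28 ± 0.38 over wdr12- (adjusted p = 0.028), and of 12 prefoldin and CCT helper genes 3, of which uxt rose by 1.37 ± 0.39 (adjusted p = 0.0205).

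Cochaperones of Hsp70 and Hsp90 gave 7 of 36 listed genes, 3 higher and 1 lower in wdr12+ than in wdr12- cells and 4 higher and 2 lower than in ebf3+. The gene stip1, for the adaptor between Hsp70 and Hsp90, had 224, 148 and 139.9 CPM in wdr12+, 68.8 and 70.2 in wdr12- and 83.6, 107 and 79.7 in ebf3+, a rise of 1.29 ± 0.32 (adjusted p = 0.00949) and 0.92 ± 0.28 (adjusted p = 0.0235). The exchange factor gene bag2 was higher in wdr12+ than in ebf3+ by 3.86 ± 0.59 (adjusted p = 0.000216), and sgtb, a small tetratricopeptide cochaperone, was lower in wdr12+ at -2.93 ± 0.55 (adjusted p = 0.00155) and -2.41 ± 0.51 (adjusted p = 0.00253). Of 17 genes of the integrated stress and amino acid response, which eIF2 alpha kinases switch on, 7 were found, 2 higher and 1 lower in wdr12+ than in wdr12- and 4 higher and 3 lower than in ebf3+. The serine synthesis gene phgdh rose by 1.53 ± 0.35 (adjusted p = 0.00536) and 1.01 ± 0.29 (adjusted p = 0.0197), while the stress transcription factor gene ATF5 (2 of 2) was lower, at -2.69 ± 0.53 (adjusted p = 0.00207) and -3.12 ± 0.50 (adjusted p = 0.000305). The response factor ddit3 was lower in wdr12+ than in ebf3+, at -2.10 ± 0.33 (adjusted p = 0.000279). Of 6 heat shock regulator genes none was among the genes with a symbol.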

How the data were processed

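RNA of 8 sorted samples was sequenced as single reads. Per the submitters' processing notes, the tools were CASAVA 1.8.2, FastQC 0.10.1, TopHat2 and DESeq; how reads were counted, on which build and annotation, is not given in the sources used here. Deposited tables hold whole read counts per gene and library, not normalised, per the file headers. For each comparison the authors added p-values, raw and adjusted, and log2 fold changes; the signs of their lists for the ebf3 comparisons are opposite to those of their full tables, and directions were taken from the counts. Gene symbols come from the authors' deposited lists, which name 4662 of 5043 genes.

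The counts that 3 comparison tables share (131234 cells) were equal. No gene has a total under 11. One edgeR 4.0.16 model (R 4.3.3) took the counts of all 8 libraries (TMM, filterByExpr, 15640 genes left, biological coefficient of variation 0.514), and each comparison was tested with the two-sided quasi-likelihood F test, adjusted by Benjamini-Hochberg over all genes tested, with calls under 0.05. The SE is the log2 fold change over the square root of F. Joins and figures used pandas 2.3.3, numpy 2.4.6 and matplotlib 3.10.9 under Python 3.11.15. Alternatives were DESeq2 1.42.0, RLE factors, no filter, library sizes without 6 globin genes, only the groups compared, a replicate block, a threshold of 0.01, and each library left out; where 1 wdr12 GFP-negative library was left, it is assumed to vary like the other groups.

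The members and lists were chosen with earlier results of these data known. A rule took, per role, the 3 genes of highest mean CPM and the 2 called genes of smallest adjusted p in each direction and comparison. It also took all genes called lower in wdr12 GFP-positive cells than in a control, which gave 39 genes in all. Copies moving in opposite directions were planned as well, and the eEF1A and eEF2 pairs were already among the 39. The further members in the text were picked once their values were known. The small RNA input and the depth of 3497101 to 11580629 counts limit the precision of low genes.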

Additional observations from a re-analysis of the deposited data

How the results depend on the processing

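Of 68 called values of the genes named by rule, 68 kept direction and call with DESeq2, without the low-count filter and with globin-free library sizes, 67 with RLE factors, 61 in fits of only the groups compared and 36 at an adjusted p under 0.01. Without 1 library, between 34 (wdr12 GFP-negative replicate 1) and 65 (wdr12 GFP-positive replicate 3) kept both. The 1 reversed value was hsp70.3 between the wdr12 sorts, at -4.75 to 0.68 over the repeats, the positive value without wdr12 GFP-negative replicate 2. The causes of these changes were not tested, beyond the fewer samples or stricter threshold.

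Members higher in wdr12 GFP-positive than in wdr12 GFP-negative cells numbered 36, with 19 at an adjusted p under 0.01 and 3 to 37 over the repeats without 1 library. Those lower numbered 12, with 8 to 15 without 1 library. Members higher than in ebf3 GFP-positive cells numbered 13, with 7 under 0.01 and 8 to 13 without 1 library, and those lower 9, with 6 to 9. Between the controls, higher members numbered 5, with 9 in a fit of only those groups, 2 under 0.01 and 1 to 7 without 1 library. Lower members there numbered 10, with 23 by DESeq2, 24 in a fit of only those groups, 0 under 0.01 and 0 to 21 without 1 library.

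Over all genes, the counts under 0.01 were 823 higher and 933 lower between the wdr12 sorts, 1336 higher and 1052 lower in the wdr12 GFP-positive against the ebf3 cells, and 195 higher and 79 lower between the controls. At the threshold of 0.05, where the full counts were 1551 higher and 1539 lower between the wdr12 sorts and 494 and 307 between the controls, the counts without 1 library ran from 557 to 1752 and 785 to 1832 between the wdr12 sorts, and from 133 to 753 and 25 to 576 between the controls. At 0.05 the controls gave 794 higher and 706 lower by DESeq2 and 852 and 753 in a fit of only those groups.

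The correlations of deviations from group means ran from -0.223 to 0.221 between same-numbered libraries and from -0.252 to 0.275 between differently numbered ones. With only 2 or 3 libraries per group the deviations constrain each other. These values therefore cannot decide whether replicate numbers pair the samples. With the replicate number as a block, 33 members were higher and 13 lower between the wdr12 sorts, 11 and 8 against ebf3 GFP-positive cells, and 7 and 10 between the controls, and 819 of all genes were higher between the controls. Of the 68 values, 62 kept their call under the block.

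Low-count members such as eif4ebp1 (2 of 2), tars (1 of 2) and hspb8 rest on few reads, and depth limits their precision.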
